A study of Mus musculus with 32 samples.

Results

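A set of 9 genes of the red cell lineage were followed through mouse lung in which the glutathione reductase gene Gsr was knocked out or intact: the embryonic globin Hbb-y, the heme enzyme Alas2, the blood group genes Kel, Ermap and Rhd, the transcription factors Klf1 and Gata1, the membrane protein gene Epb42 and the transferrin receptor gene Tfrc. They were taken by name as a list of erythroid and globin genes, chosen with earlier results of these data known. They are 9 of the 13345 genes tested, and each was read by the probe set that averaged highest across the arrays. Lung RNA was hybridised to Affymetrix mouse 430 2.0 arrays, 1 array for each of 32 mice, all labelled C3H/HeN. The E19 groups were Gsr-KO and Gsr-WT embryos with no exposure, 4 lungs each. The other groups, of 3 lungs each, were Gsr-KO and Gsr-WT mice kept in hyperoxia (100% oxygen) or in room air over P0 to P5 and taken at P5 or at P56, 10 groups in all. The RNA came from a portion of each lung, and the labels give neither how the Gsr allele was made nor the sex of the animals.

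Red cells arise in the fetal liver before birth and in the bone marrow and, in mice, the spleen afterwards; lung is not a main site. GATA1 and KLF1 are the transcription factors that switch on most red cell genes, by binding GATA and CACCC sequences. Their targets include enzymes that make heme, globins, the blood group and membrane skeleton proteins, and the receptor that brings iron into the cell. Young red cells keep some RNA for a time after they lose the nucleus, and Hbb-y belongs to the early, yolk sac derived wave. In lung pieces a value can therefore come from circulating blood, from precursor cells or from any liver tissue taken with the piece. Fewer cells of a type and less RNA per cell cannot be told apart in bulk RNA.

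The stretches before the start sites of 5 members are shown because most members moved together and because their regulators bind short known sequences. They are the 250 bases before the RefSeq start on GRCm38.p6, printed 5′ to 3′ on the strand of the gene, and capitals mark each GATA match (AGATAA and likewise AGATAG, or with T first, TGATAA and likewise TGATAG, on either strand) and each CACCC match (on either strand). Where the match lies on the other strand, the capitals show its reverse complement. The windows are Klf1 at chr8:84901732-84901981 (plus strand), Kel at chr6:41704326-41704575 (minus strand), Ermap at chr4:119189996-119190245 (minus strand), Alas2 at chrX:150547167-150547416 (plus strand) and Hbb-y at chr7:103853208-103853457 (minus strand).
Klf1: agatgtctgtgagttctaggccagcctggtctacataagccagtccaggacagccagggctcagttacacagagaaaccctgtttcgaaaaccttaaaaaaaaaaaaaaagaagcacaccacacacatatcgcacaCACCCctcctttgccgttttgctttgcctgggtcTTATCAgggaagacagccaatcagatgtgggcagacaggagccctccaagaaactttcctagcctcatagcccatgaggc
Kel: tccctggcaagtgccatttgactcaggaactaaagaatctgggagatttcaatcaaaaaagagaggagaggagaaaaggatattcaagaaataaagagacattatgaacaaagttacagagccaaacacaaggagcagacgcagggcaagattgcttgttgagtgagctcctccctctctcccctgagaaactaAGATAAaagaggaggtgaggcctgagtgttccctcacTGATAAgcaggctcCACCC
Ermap: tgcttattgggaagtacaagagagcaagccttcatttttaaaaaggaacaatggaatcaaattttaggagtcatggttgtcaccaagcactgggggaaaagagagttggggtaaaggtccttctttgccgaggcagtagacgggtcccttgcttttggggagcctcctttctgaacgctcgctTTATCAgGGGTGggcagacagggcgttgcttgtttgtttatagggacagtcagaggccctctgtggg
Alas2: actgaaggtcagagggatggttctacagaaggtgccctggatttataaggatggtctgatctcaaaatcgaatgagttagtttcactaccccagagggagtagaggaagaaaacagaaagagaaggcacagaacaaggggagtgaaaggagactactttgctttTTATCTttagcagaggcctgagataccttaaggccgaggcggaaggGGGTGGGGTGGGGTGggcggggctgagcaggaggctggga
Hbb-y: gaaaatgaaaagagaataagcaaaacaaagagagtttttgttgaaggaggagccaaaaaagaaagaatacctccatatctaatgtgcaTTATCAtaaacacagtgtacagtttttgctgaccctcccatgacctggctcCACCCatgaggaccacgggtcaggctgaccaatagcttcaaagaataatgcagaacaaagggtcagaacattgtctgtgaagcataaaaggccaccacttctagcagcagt

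All 9 members had a RefSeq window, and Tfrc had 2, which overlap, so 10 windows were searched. A GATA match was present in 7 of the 10 member windows, against 26.5% of all 32851 RefSeq windows of this length. The windows without one were those of Gata1 and Tfrc. A CACCC match was present in 9 of the 10, against 52% of all windows, and the exception was Epb42. Both motifs were present in 6 of the 10 member windows, against 11.8% of all windows. In Ermap the GATA match lay 67 bases before the start and the CACCC match 60 bases before it. Kel held 2 GATA matches, 56 and 19 bases before its start. These are matches of letters and not measured binding sites, and the windows of Alas2 and Hbb-y, whose levels followed another pattern below, held both motifs as well.

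**Figure D1:**
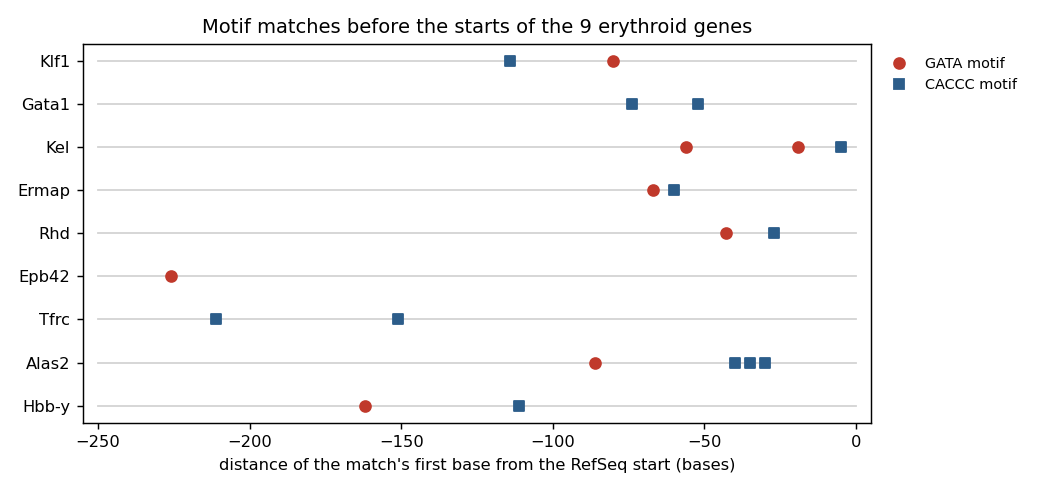
Positions of GATA (circles) and CACCC (squares) matches in the 250 bases before the RefSeq start of each of the 9 genes, in bases from the start (first window for Tfrc). Both motifs are present in the windows of Klf1, Kel, Ermap, Rhd, Alas2 and Hbb-y.

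Before the members, 4 features of the arrays bear on their values. Gsr itself read 138 to 257 in KO lungs and 498 to 1541 in WT lungs, without overlap. Lung marker genes were above the median of all values (100.4 signal units) on every array, 15 or 16 of 16. WT E19 lung 1 correlated best with KO P5 air lung 1 (r = 0.973, against 0.937 for the closest lung of its own group), and KO P5 air lung 1 correlated best with KO E19 lung 2 (0.976, against 0.961 in its own group). KO E19 lung 1 had a log2 ratio of 3′ over 5′ control signals (actin, Gapdh) of 4.37 and WT P56 hyperoxia lung 2 one of 2.84, while the highest on any other array was 1.55. Values are given below with these arrays. For some results where leaving one out changed a call or moved a value by over 1.5 times, values without it are given as well.

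At E19 most of the red cell genes were far lower in KO lungs than in 3 of the 4 WT lungs, and the fourth WT lung, WT lung 1, lay with the KO lungs. 7 members fell in limma with an adjusted p under 0.05: Kel, Ermap, Rhd, Klf1, Epb42, Gata1 and Tfrc. That is 7 of 9, beside 8.28% of all genes that were called and lower. The list was chosen with earlier results of these data known, so this contrast is a description and no independent test. The median change of the 9 was -1.98 on the log2 scale, beside -0.05 over all genes. Hbb-y and Alas2 were not called.

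Of the transcription factors, Klf1, which drives adult globin and many membrane genes, read 176, 82.5, 154 and 69.9 in KO lungs 1 to 4, against 81.9, 1264, 544 and 1644 in WT lungs 1 to 4. WT lungs 2, 3 and 4 stood above every KO lung, and WT lung 1 lay among them. The change was -2.11 (SE 0.50; limma adjusted p = 0.00517). Gata1, the X-linked master regulator of red cell and platelet precursors, read 110, 105, 92.1 and 83.4 in KO lungs, against 106, 273, 187 and 553 in WT lungs. The order was the same, with WT lung 1 inside the KO range. The change was -1.10 (SE 0.26; limma adjusted p = 0.00485).

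Of the surface and membrane genes, Kel, which encodes the Kell blood group endopeptidase, read 65.1, 89.4, 58.9 and 54.7 in KO lungs, against 90.7, 988, 657 and 2010 in WT lungs. Kel was the single member whose groups did not overlap (5.63% of all genes were lower without overlap), and WT lung 1 lay just above the highest KO lung. All 4 KO values lay under the median of all values. The change was -2.79 (SE 0.48; limma adjusted p = 0.000396), and it was at least -2.33 with the KO values raised to that median. Ermap, the Scianna blood group protein of red cell membranes, read 82, 71.2, 101 and 70.4 in KO lungs, against 58.6, 1632, 632 and 1967 in WT lungs. WT lung 1 was the lowest of all 8 lungs. The change was -2.62 (SE 0.54; limma adjusted p = 0.00156).

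Rhd, a member of the Rhesus family of the red cell membrane, read 118, 84.8, 130 and 80.5 in KO lungs, against 97.3, 830, 420 and 1335 in WT lungs. The change was -1.98 (SE 0.39; limma adjusted p = 0.00115). Epb42, the band 4.2 protein that ties the anion exchanger to the membrane skeleton, read 120, 38.1, 19.1 and 26.9 in KO lungs, against 28.6, 633, 249 and 741 in WT lungs. In both genes WT lungs 2, 3 and 4 were the highest and WT lung 1 lay inside the KO range. For Epb42 the change was -2.10 (SE 0.52; limma adjusted p = 0.00664).

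Tfrc, the receptor that takes up iron-loaded transferrin and is used by many dividing cells, read 2544, 2202, 2526 and 1726 in KO lungs, against 1827, 4963, 3287 and 6853 in WT lungs. The same 3 WT lungs were high, on top of a signal that every lung had. The change was -0.76 (SE 0.26; limma adjusted p = 0.0460). The Tfrc call was kept in 8 of the 20 alternatives tried. It was lost with another probe set of the gene (limma adjusted p = 0.0831) and without WT lung 2, 3 or 4 or KO lung 2 or 4 (0.0584 to 0.222).

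Alas2, the red cell form of the first enzyme of heme synthesis, read 2233, 5078, 3906 and 2908 in KO lungs, against 4490, 5007, 4681 and 8147 in WT lungs. WT lung 4 was high and the others overlapped, with WT lung 1 next to WT lungs 2 and 3. The change of -0.68 (SE 0.28) was not called (limma adjusted p = 0.0959), and it passed the threshold without KO lung 2 (-0.87, adjusted p = 0.0328). Hbb-y, a beta-like globin of embryonic red cells, read 206, 58.4, 325 and 430 in KO lungs, against 502, 289, 519 and 344 in WT lungs. WT lungs 1 and 3 were the highest, and KO lungs 3 and 4 lay among the WT lungs. The change of -0.85 (SE 0.49) was not called (limma adjusted p = 0.234). Hbb-y was thus high in WT lung 1, where Kel, Ermap, Rhd, Klf1 and Epb42 were low. Its probe set has the x_at suffix, which Affymetrix gives to sets that may also bind related transcripts; a second x_at set gave group means of 249 in KO and 394 in WT lungs at E19, and a set without that suffix gave 36.2 in KO and 95.3 in WT lungs.

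**Figure D2:**
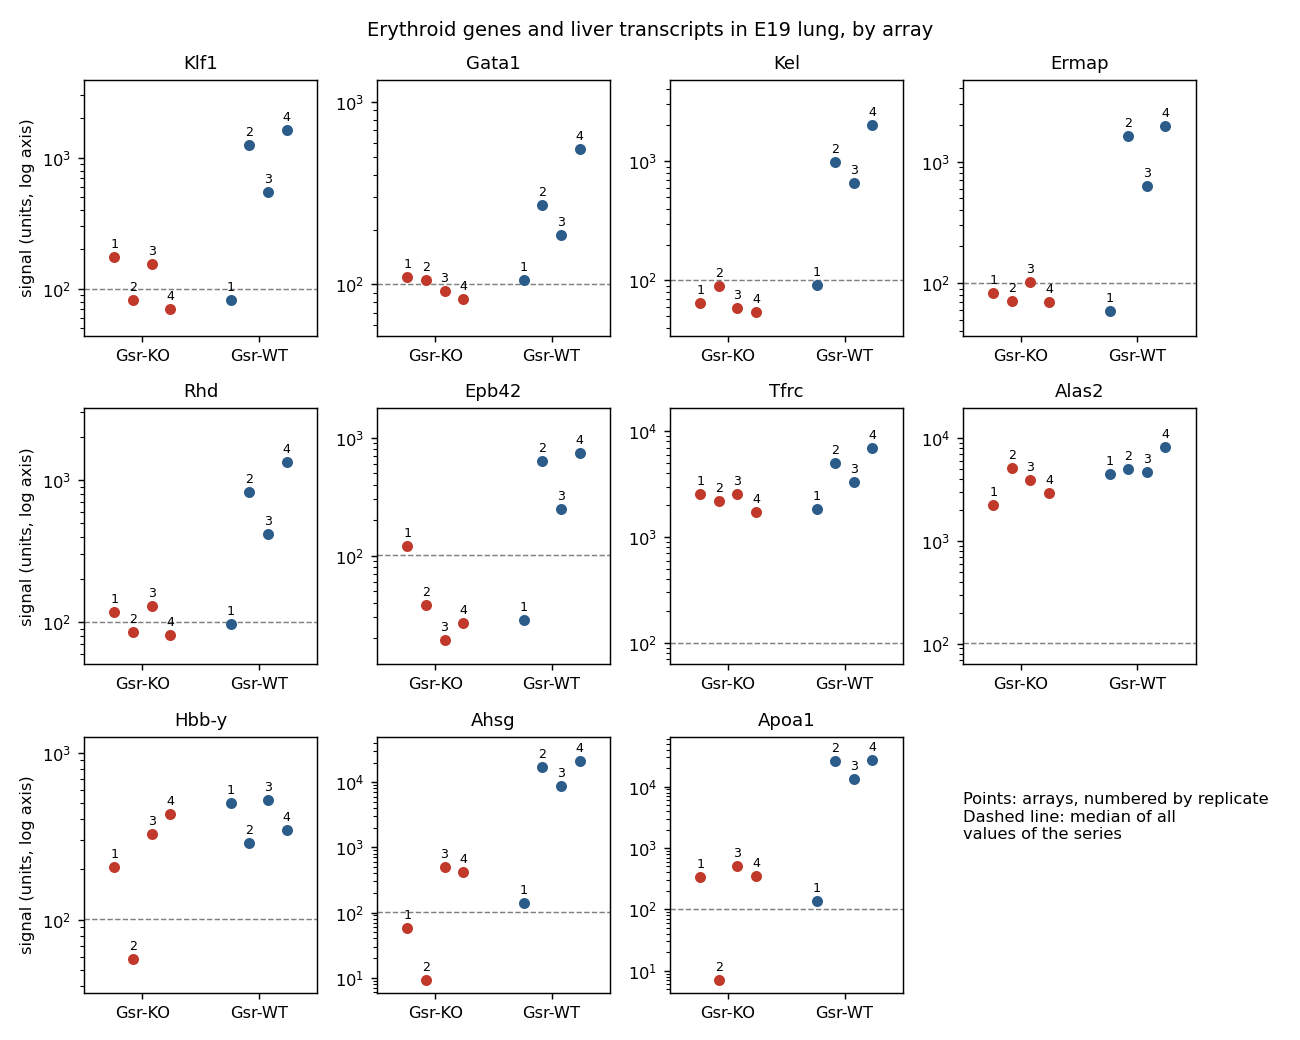
Signal (log axis, MAS5 units) of the 9 erythroid genes and of the liver transcripts Ahsg and Apoa1 in each E19 lung, Gsr-KO left and Gsr-WT right, points numbered by replicate. WT lungs 2, 3 and 4 stand above the rest for 7 erythroid genes and both liver transcripts, while WT lung 1 lies with or next to the KO lungs, and Alas2 and Hbb-y overlap between the groups.

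The 3 WT lungs with high red cell genes were also those with liver transcripts. Ahsg, the plasma protein fetuin-A made in liver, read 57.7, 9.35, 497 and 414 in KO lungs, against 141, 17071, 8590 and 20770 in WT lungs. Apoa1, the main protein of high-density lipoprotein, made in liver and intestine, read 343, 6.96, 504 and 347 in KO lungs, against 137, 26112, 13191 and 27204 in WT lungs. Of 25 liver genes with a probe set, 22 passed the filter and were tested. A liver gene could pass it through WT lungs 2, 3 and 4 alone, so the following count is no independent test. Of the 22 liver genes tested, 22 fell in KO lungs at E19 (median change -4.14). Their summed signal ran from 1843 to 13159 in KO lungs, with 5 to 19 of the 22 above the median of all values. In WT lungs it was 4245 in lung 1, with 11 of 22 above that median, and 156631 to 327079 in lungs 2, 3 and 4, with 22 of 22. No liver gene was at 0 in either group. As no detection calls were used, a low signal does not show that a transcript was present. Whether liver tissue was taken with these lungs was not tested, and the labels do not say. WT lungs 2, 3 and 4 also ranked in the same order by Ahsg, Apoa1, Klf1, Kel, Ermap, Rhd, Epb42, Gata1, Tfrc and Alas2. Lung 4 came first and lung 3 last. Hbb-y did not follow that order, at 289, 519 and 344 in WT lungs 2, 3 and 4.

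With the mean liver level of each array as a covariate, none of the 9 members was called at E19. The changes were then -0.94 for Kel, -0.51 for Epb42, -0.38 for Rhd, -0.33 for Ermap, -0.33 for Gata1, -0.17 for Klf1 and -0.06 for Tfrc. Alas2 moved little, to -0.61, and Hbb-y to -0.37. The covariate itself differs between the genotypes at E19, so the 2 cannot be told apart over these 8 lungs. With a spread set by the KO and WT E19 lungs alone, 0 members were called, and the adjusted p ran from 0.152 for Kel to 0.462 for Hbb-y. Without WT lung 1 the falls were larger, at -3.60 for Kel, -3.60 for Ermap, -2.94 for Klf1, -2.91 for Epb42 and -2.65 for Rhd, and the same 7 members were called, as they were without KO lung 1. The shares of all genes called in these alternative fits are not given here. Their counts are therefore not read as results about the members.

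**Figure D3:**
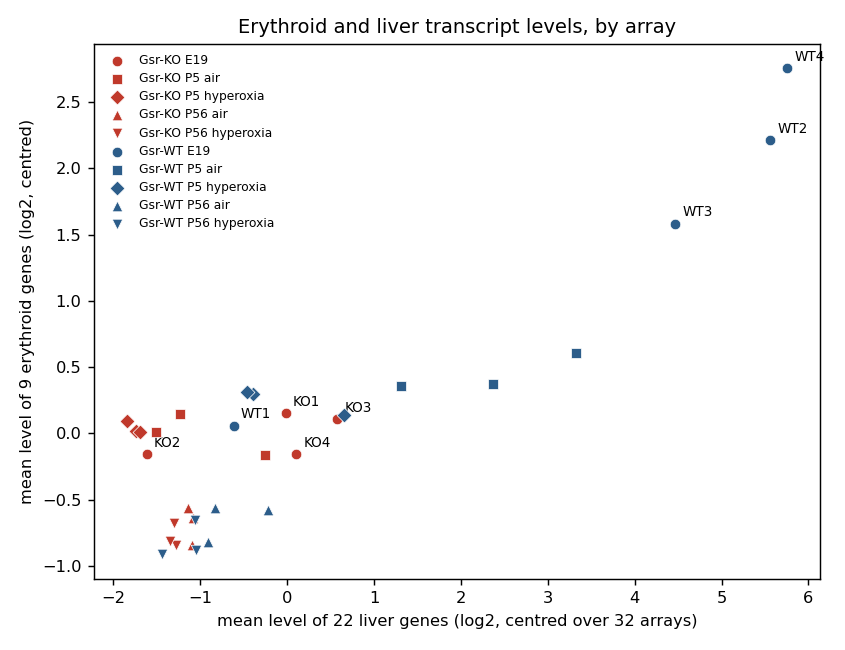
Mean log2 level of the 9 erythroid genes (vertical axis) against that of 22 liver genes (horizontal axis) on each of the 32 arrays, each gene centred over all arrays, Gsr-KO red and Gsr-WT blue. WT E19 lungs 2, 3 and 4 lie at 1.58 to 2.75 (erythroid) and 4.47 to 5.75 (liver), and P56 lungs lie lowest on the erythroid axis.

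Other genes of the red cell pathway moved in part with the members at E19. The counts of these lists stand beside 8.28% of all genes lower and 6.95% higher in KO lungs. A single gene that rose in a list is near that share. Of 15 further genes of heme synthesis and its mitochondrial transport, 8 fell in KO lungs and 0 rose (median -0.64). Alad, the second enzyme of the pathway, averaged 4462 ± 1643 in KO lungs and 10515 ± 2410 in WT lungs (SD, n = 4 each), without overlap, a change of -1.31. Ppox and Cpox, late enzymes of the pathway, changed by -1.49 and -1.33, and Slc25a37, the mitochondrial iron importer mitoferrin-1, by -1.14. Alas1, the housekeeping form of the first enzyme, had a change of 0.21 and was not called, and neither was Fech, the last enzyme (-0.33).

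Of 18 red cell membrane genes, 8 fell and 1 rose (median -0.50). Cldn13, a claudin of mouse erythroid cells, averaged 24.4 ± 19.2 in KO lungs and 510 ± 446 in WT lungs (SD, n = 4 each), a change of -2.83. Rhag, the Rhesus-associated ammonia channel, changed by -2.58, Tspo2, an erythroid relative of the mitochondrial translocator protein, by -1.91 and Slc4a1, the band 3 anion exchanger, by -1.87. Of 21 transcription factors and cofactors of the lineage, 4 fell and 1 rose (median -0.44). Hemgn, an erythroid nuclear protein, averaged 95.1 ± 53.0 in KO lungs and 2299 ± 2144 in WT lungs (SD, n = 4 each), a change of -3.21, and Nfe2, the p45 subunit that acts at globin loci, changed by -1.71. E2f2, a cell cycle regulator, changed by -0.64 and Gata2, which precedes Gata1 in progenitors and is also active in vessel cells, was higher in KO lungs by 0.58. Tal1, Lmo2 and Ldb1, the partners of GATA1, had changes of -0.58, -0.22 and -1.49 and none was called.

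Of 18 genes of iron handling and erythropoietin response, 7 fell and 1 rose (median -0.18). Car1, the red cell carbonic anhydrase, changed by -1.91, Tfr2, the second transferrin receptor, by -1.59, Trim10, an erythroid ubiquitin ligase family member, by -1.41 and Steap3, the ferric reductase of erythroid endosomes, by -1.14. 3 further globins passed the filter and none was called. Hba-x, the embryonic alpha-like globin, averaged 94.0 ± 55.1 in KO lungs and 153 ± 40.1 in WT lungs. Hbb-b2, an adult beta globin read by an x_at probe set, averaged 4688 ± 2691 in KO lungs and 6097 ± 1787 in WT lungs (SD, n = 4 each). The remaining globin symbols of the list are not analysed here, because their probe sets carry several gene symbols, did not pass the filter or were not found by symbol.

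Genes of other cell types were read on the same lungs, again beside 8.28% of all genes lower and 6.95% higher in KO lungs. Of 11 genes of granulocyte precursors, which also form in fetal liver, 6 fell and 1 rose (median -1.60), with Mpo at -2.86, Prtn3 at -2.61, Ctsg at -2.54 and Elane at -2.30. Their mean centred level was -0.23 to 0.11 in KO lungs, against -0.69 in WT lung 1 and 1.21 to 2.86 in WT lungs 2, 3 and 4. Of 12 megakaryocyte and platelet genes 0 fell and 1, Vwf, which endothelium also makes, rose by 0.91. Of 12 genes of lymphocytes, macrophages and blood progenitors, 0 were called. Of 19 mitosis genes 18 fell (median -1.25), with Birc5 at -1.77, Aurkb at -1.66, Ccna2 at -1.65 and Plk1 at -1.53. The mean centred level of the mitosis genes was -0.53 to 0.53 in KO lungs, against 1.16 in WT lung 1 and 1.05 to 1.52 in WT lungs 2, 3 and 4. WT lung 1 was thus with its group for mitosis genes and apart from it for Kel, Ermap, Rhd, Klf1, Epb42, Gata1, Tfrc and the granulocyte precursor and liver genes. Its Hbb-y (502) and Alas2 (4490) lay with or next to the other WT lungs, as did the level of the 3 further globin list genes (0.84, beside 0.57 to 1.22 in WT lungs 2, 3 and 4). Of 16 lung markers 7 rose and 0 fell in KO lungs (median 0.32), with Rtkn2 at 2.60 and Car4 at 1.60. The part of any of these cell types in the members' values was not tested.

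**Figure D4:**
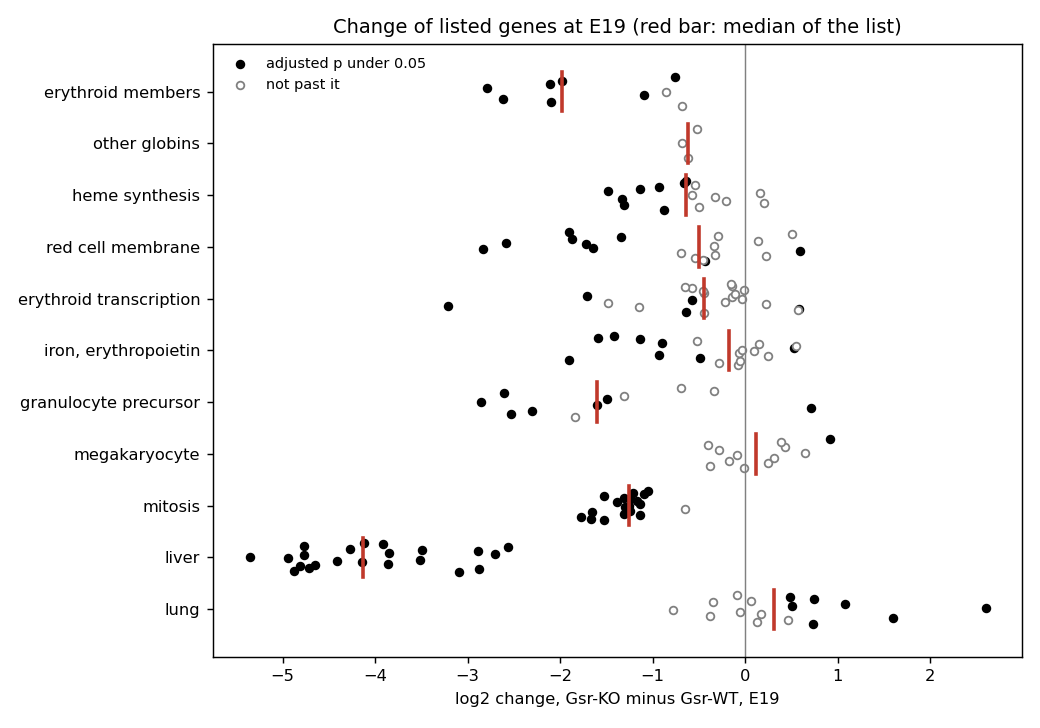
Log2 change (Gsr-KO minus Gsr-WT, E19) of each tested gene of 11 lists, filled where limma's adjusted p was under 0.05, with the median of each list as a red bar. The liver list lies lowest (median -4.14), followed by the 9 erythroid members (-1.98), granulocyte precursors (-1.60) and mitosis (-1.25), and the lung list lies above 0 (0.32).

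After birth the members did not pass the test between genotypes. Each SE rests on the spread over all 10 groups, WT E19 included, so a missing call does not show equal levels. In P5 air, 0 of 9 were called in limma (0.0375% of all genes were), and 2, Hbb-y and Klf1, had an unadjusted p under 0.05. Hbb-y was higher in KO lungs, at 457, 45.9 and 14.0, against 28.1, 23.0 and 2.55 in WT lungs, by 1.40 (SE 0.56), and by 0.34 without KO P5 air lung 1. The groups overlapped. Kel, Ermap, Rhd, Klf1 and Tfrc were lower in each KO lung than in each WT lung, 5 of 9 members, beside 8.41% of all genes. Klf1 read 28.2, 95.4 and 73.0 in KO lungs, against 235, 176 and 198 in WT lungs. Ermap read 61.6, 134 and 165 in KO lungs, against 394, 293 and 219 in WT lungs. Kel read 64.2, 98.7 and 105 in KO lungs, against 281, 178 and 145 in WT lungs. The KO lung 1 was lowest for all 3 genes. The changes were -1.39 (SE 0.58) for Klf1, -1.20 (SE 0.62) for Ermap and -0.95 (SE 0.55) for Kel, with limma adjusted p from 0.797 to 0.940. The mean liver level was -0.25, -1.23 and -1.50 in those KO lungs and 3.32, 2.37 and 1.31 in the WT lungs, also without overlap. Of the 22 liver genes 1, Afp, was called between the genotypes in P5 air, and it was lower in KO lungs.

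In P5 hyperoxia, 0 of 9 members were called (0.187% of all genes were), and 0 had an unadjusted p under 0.05. Kel, Ermap, Klf1, Epb42 and Gata1 were lower in each KO lung than in each WT lung, 5 of 9 members, beside 8.61% of all genes. Kel, Ermap and Klf1 were the 3 that were so in P5 air too; Epb42 and Gata1 overlapped in P5 air, and Rhd and Tfrc overlapped in P5 hyperoxia. Ermap read 170, 159 and 162 in KO lungs, against 271, 273 and 238 in WT lungs. Gata1 read 126, 103 and 107 in KO lungs, against 158, 162 and 146 in WT lungs. Replicates of these 2 groups lay close together. The changes were -0.60 for Ermap (SE 0.62) and -0.39 for Gata1 (SE 0.30), with limma adjusted p = 0.9999 for both. Those SEs rest on the spread over all 10 groups and not on these 2 alone. Hbb-y was higher in each KO lung, at 3.21, 15.5 and 1.73, against 0.817, 0.717 and 0.274 in WT lungs, 1 of 9 members, beside 9.9% of all genes. All of these values lay far under the median of all values, and the change was 0.28 (SE 0.56; limma adjusted p = 0.9999). The mean liver level was -1.84 to -1.70 in these KO lungs and -0.46 to 0.66 in the WT lungs. At P56, 0 of 9 were called in air (0.0749% of all genes were) and 0 of 9 in hyperoxia (0.0375%), with 0 members under an unadjusted p of 0.05 in either. Alas2 and Ermap were lower in KO lungs without overlap in P56 air, and Tfrc was higher in P56 hyperoxia. The shares of all genes without overlap at P56 are not given here.

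No member was called between hyperoxia and air. In WT lungs at P5, 0 of 9 were called (0.00749% of all genes were), and in KO lungs at P5, 0 of 9 (0.345%). At P56 0 of 9 were called in WT lungs (0% of all genes) and 0 of 9 in KO lungs (0%). 1 member had an unadjusted p under 0.05 in these 4 comparisons, Hbb-y in KO lungs at P5. It read 3.21, 15.5 and 1.73 in hyperoxia, against 457, 45.9 and 14.0 in air, a change of -1.78 (SE 0.56; limma adjusted p = 0.358). The highest air value is that of KO P5 air lung 1, and without that lung the change was -0.73 (limma adjusted p = 0.9999). Without lung 3 of the air group it was -2.52 and called (limma adjusted p = 0.0397). In WT lungs at P5, Hbb-y, Rhd and Klf1 were lower and Gata1 was higher in hyperoxia without overlap. Epb42 was lower in hyperoxia without overlap at P56, in WT and in KO lungs. The Hbb-y and Epb42 values of these groups all lay under the median of all values. The shares of all genes without overlap between hyperoxia and air are not given here. The air lungs also serve in the comparisons by genotype and by age.

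Between ages Hbb-y, the 6 genes from Kel to Gata1, Alas2 and Tfrc did not share 1 course. Hbb-y was highest at E19 and went down toward the floor of the array after birth in WT lungs. Its WT signals were 289 to 519 at E19, 2.54 to 28.1 in P5 air and 0.601 to 1.53 in P56 air. In P5 air against E19 the WT change was -3.33 (SE 0.53; limma adjusted p = 0.000149), and at least -1.76 with the P5 values raised to the median of all values. The embryonic Hba-x was lower after birth as well, with a WT change of -1.70 (limma adjusted p = 0.0103). In KO lungs Hbb-y read 457, 45.9 and 14.0 in P5 air, against 206, 58.4, 325 and 430 at E19, and was not called (-1.08, limma adjusted p = 0.243). KO P5 air lung 1 alone held an E19 level, and without it the KO change was -2.13 (limma adjusted p = 0.00119). Hbb-y passed the filter on low signals through 7 E19 lungs and this 1 lung, so it was kept for the test mainly through the age at which it was high.

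Kel, Ermap, Rhd, Klf1, Epb42 and Gata1 instead were high at E19 in the same 3 WT lungs and intermediate in WT lungs at P5. They lay under the median of all values in nearly all P56 lungs of both genotypes. In KO lungs all of them but Klf1 averaged higher in P5 air than at E19, such as Kel (89.3 against 67.0) and Ermap (120 against 81.2). In WT lungs, P5 air against E19, Kel changed by -1.53 (SE 0.52; limma adjusted p = 0.0463) and Rhd by -1.30 (SE 0.42; limma adjusted p = 0.0378). With Hbb-y these were 3 of 9 members lower, beside 6.23% of all genes. The count was 8 without WT E19 lung 1, where Kel changed by -2.34 and Rhd by -1.97. It was 1, Hbb-y, without any other single lung of these 2 groups. It was also 1, Hbb-y, with the liver level as a covariate, with no offset, with arrays centred on their medians and with only these 2 groups fitted, and Kel was not called with no filter on low signals (limma adjusted p = 0.0590). The mean liver level of these lungs was 3.32, 2.37 and 1.31 in P5 air, against -0.61, 5.56, 4.47 and 5.75 at E19. Of the 22 liver genes 3 were lower in P5 air (median change -1.58), and of the 11 granulocyte precursor genes 5 were lower (median -0.46). In KO lungs 0 of 9 were called in P5 air against E19 (3.45% of all genes were), with 0 under an unadjusted p of 0.05. The difference between the genotypes in this step was called for 0 of 9 members (0.187% of all genes), with 4 under an unadjusted p of 0.05, and its median was 1.27. Without WT E19 lung 1, the WT E19 lung low in these genes, that difference was called for 5: Kel (2.65), Ermap (2.40), Rhd (2.01), Epb42 (2.08) and Gata1 (1.32). The share of all genes called without that lung is not given here. Over all alternatives tried, Kel and Ermap were called in 1 of 25, Gata1 in 1 of 24, and Rhd and Epb42 in 2 of 25.

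Between P5 and P56 in air, WT lungs had lower Kel (-1.90), Klf1 (-1.94), Ermap (-1.84) and Rhd (-1.33), all called, 4 of 9 lower beside 10.8% of all genes. Klf1 read 35.9, 42.4 and 23.3 at P56, against 235, 176 and 198 at P5 (limma adjusted p = 0.0156). Every P56 lung lay under every P5 lung for all members except Tfrc, 8 of 9, beside 27.1% of all genes. The 4 calls became 0 with the liver level as a covariate, 0 without WT P5 air lung 1 or WT P56 air lung 3, and 2 without WT P5 air lung 2 or WT P56 air lung 1 or 2. The mean liver level was -0.91 to -0.22 at P56 and 1.31 to 3.32 at P5 in these WT lungs.

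In KO lungs, where the liver level was -1.14 to -1.08 at P56 air and -1.50 to -0.25 at P5 air, 3 of 9 members were called between P56 and P5 air, beside 29.6% of all genes. Alas2 read 1697, 1885 and 2146 at P56, against 4405, 4780 and 3778 at P5, a change of -1.17 (SE 0.32; limma adjusted p = 0.00679). Hbb-y changed by -2.03 (SE 0.56; limma adjusted p = 0.00742), but by -0.97 (adjusted p = 0.107) without KO P5 air lung 1. Tfrc went the other way, with 5275, 3666 and 4167 at P56, against 1873, 2441 and 2122 at P5, a change of 1.01 (SE 0.30; limma adjusted p = 0.0114). With another Tfrc probe set this change was 0.07, and without KO P56 air lung 1 it was 0.87 (adjusted p = 0.0651). Kel and Ermap had changes of -1.16 and -1.29 that were not called, and with the liver level as a covariate both were called (-1.10 and -1.23). 5 members, Hbb-y, Alas2, Kel, Ermap and Rhd, were lower in every P56 lung than in every P5 lung, beside 25.8% of all genes. These comparisons share their P5 air lungs with those against E19.

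The other lists of the pathway moved in both directions between P5 and P56 air, in WT lungs beside 10.8% of all genes lower and 12.1% higher and in KO lungs beside 14.3% lower and 15.2% higher. Of 18 membrane genes 7 fell and 2 rose in WT lungs between P5 and P56 air, with Slc4a1 at -2.57, Rhag at -2.32 and Cldn13 at -1.68. In KO lungs 2 fell, Slc4a1 at -1.94 and Gypc, the glycophorin C gene, at -1.61, and 1, Art4, rose by 1.12. Of 15 heme synthesis genes 2 fell and 2 rose in WT lungs, with Alas1 higher by 1.42 and Slc25a37 at -1.12, and in KO lungs 2 fell and 2 rose, with the same 2 genes at 1.53 and -1.39. The median of the 15 was -0.16 in WT lungs and 0.20 in KO lungs. Of 21 transcription factors and cofactors, 1 fell in WT lungs, Hemgn at -2.33, and 1 rose, Gata2 by 0.50, while in KO lungs 5 fell and 0 rose. Of 18 genes of iron handling and erythropoietin response, 5 fell and 3 rose in WT lungs, and 2 fell and 4 rose in KO lungs.

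**Figure D5:**
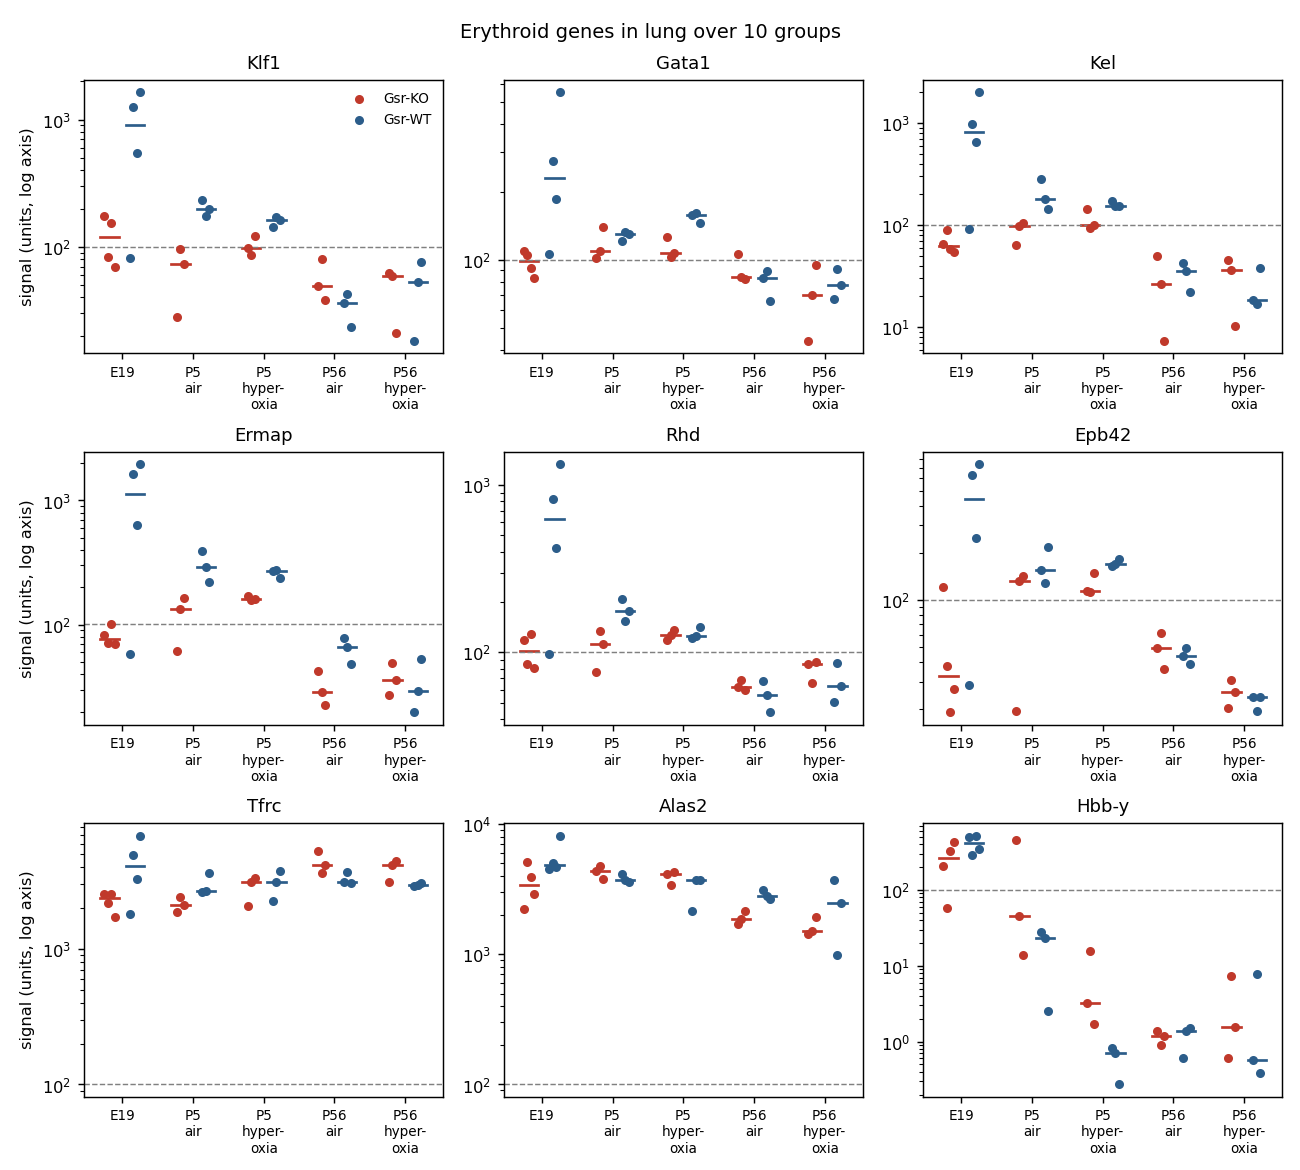
Signal (log axis, MAS5 units) of the 9 erythroid genes on all 32 arrays, by age and exposure, Gsr-KO red on the left and Gsr-WT blue on the right of each pair, with the group median as a bar and the median of all values as a dashed line. Klf1, Kel, Ermap and Rhd are highest in 3 WT E19 lungs and lowest at P56, Hbb-y drops after E19 except in 1 KO P5 air lung, and Tfrc and Alas2 lie above the median of all values on every array.

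Levels were ordered by group without a test for the 3 members that stand for the patterns. For Klf1, WT E19 averaged 883 ± 702 (SD, n = 4), followed by WT P5 air (203 ± 29.9), WT P5 hyperoxia (159 ± 15.6), KO E19 (121 ± 52.2, n = 4), KO P5 hyperoxia (102 ± 17.2) and KO P5 air (65.6 ± 34.2), and the 4 P56 groups averaged 33.9 to 55.9. WT P5 air did not overlap WT P5 hyperoxia, and the other neighbours in this order overlapped. For Tfrc, KO P56 air was highest (4370 ± 823), then WT E19 (4233 ± 2166) and KO P56 hyperoxia (3922 ± 709), which overlap, and KO P5 air was lowest (2145 ± 285) next to KO E19 (2250 ± 383). For Alas2, WT E19 was highest (5581 ± 1724), then KO P5 air (4321 ± 506), KO P5 hyperoxia (3936 ± 464) and WT P5 air (3834 ± 288), which overlap, and KO P56 hyperoxia was lowest (1622 ± 267).

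Across the 32 arrays, Kel, Ermap, Rhd, Klf1, Epb42 and Gata1 varied together, with Pearson r from 0.86 to 0.97 over their 15 pairs, and 0.68 to 0.96 over the 24 postnatal arrays. Hbb-y had r of 0.18 to 0.50 with those 6 genes over all arrays and -0.10 to 0.18 over the postnatal arrays. Alas2 had r of 0.55 to 0.69 with them over all arrays and 0.36 to 0.63 over the postnatal arrays. Tfrc had 0.22 to 0.38 with them over all arrays and -0.46 to -0.18 over the postnatal arrays. The arrays share ages, genotypes and the 3 high WT lungs, so these values describe likeness only. The genes most like the members' mean level over the 32 arrays were Hemgn (r = 0.97), Tspan33 (0.95), Mpo (0.94), Fkbp11 (0.93), Rhag (0.93), Ctsg (0.93), Cldn13 (0.92), Acp1 (0.92), Redrum (0.92) and Elovl2 (0.92). Over the 24 postnatal arrays the highest of these 10 was Rhag (0.97) and the lowest Elovl2 (0.70). Klf1 was most like Hemgn (0.94), Urod, an enzyme of heme synthesis (0.92), and Ctsg (0.91). Hbb-y was most like Atp12a (0.96), Tmem213 (0.95) and Prcd (0.94), and Tfrc was most like Marchf3 (0.89), Gpx1 (0.89) and Glud1 (0.88).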

How the data were processed

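Lung RNA of 32 mice was read on 1 array each, grouped by the labels. The authors deposited MAS5 intensity values (linear scale, 45101 probe sets; tool per the submitters' processing notes). The MAS5 version and scan dates are not given in the sources used here. Summed signals per array ran from 31172700 to 35272200. Precision is limited by how few arrays a group has. Work was done in R 4.3.3 with limma 3.58.1. Signals plus an offset of 26.3 (percentile 25 of all values) were taken to log2. A probe set had to exceed the overall median of 100.4 on 3 or more arrays, which kept 27089. Of these, 23428 named exactly 1 symbol, and the one averaging highest per symbol gave 13345 genes. Among all 45101 probe sets, 64 were controls, 9160 had no symbol and 932 named several, and these were left out. Symbols were updated by Entrez ID for 34741 of 34945 single-symbol probe sets.

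One limma model held all arrays, with a mean for each of the 10 groups (22 residual degrees of freedom, eBayes with trend). Its 14 contrasts were two-sided, Benjamini-Hochberg adjusted over the 13345 genes, at 0.05. Changes are on the log2(signal + offset) scale, which understates low genes. The code was tested on simulated data. A list's level is the mean of its genes' centred log2 values. Alternatives were the filter, offset, scaling, variance prior, probe set, array weights, compared groups alone, a replicate block, a liver covariate and each array left out. The labels do not say that replicate numbers pair the samples. Of 40 same-numbered pairs of arrays, 10 had deviations that correlated above 0.1. All pairs exceeded it in 1 of 13 comparisons, KO against WT in P5 hyperoxia (r 0.107 to 0.253), where 0 members were called with the replicate block and 0 without it. The members and lists were chosen with earlier results of these data known. Named were the 9 members with Ahsg and Apoa1, up to 4 called genes with the largest E19 change in each list (up to 3 in other comparisons), and the genes most like the members. Uncalled genes of the heme, globin and GATA1-partner groups were named after their values were seen. Promoter sequences are from RefSeq on GRCm38.p6. The labels name no litters, so p-values measure the spread between these mice, taken for each gene over all 10 groups together.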

Additional observations from a re-analysis of the deposited data

How the results depend on the processing

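At E19 the count of 7 called members was 0 when only the 2 compared groups were fitted, 0 with the liver covariate and 6 to 7 with each replicate left out. Single members at E19 kept their direction in every alternative, and 24 values lost their call, 12 of them for Tfrc. With array weights, the count was 1 for KO against WT in P5 air, 1 for it in P5 hyperoxia, 1 in P56 air, 2 in P56 hyperoxia, 1 for hyperoxia in WT at P5, 1 for hyperoxia in KO at P5, 6 for P5 against E19 in WT, 2 for P5 against E19 in KO, 8 for P56 against P5 in WT, 7 for P56 against P5 in KO and 2 for the birth difference. The shares of all genes called with array weights are not given here, so these counts are not read as results about the members. In the main fit, 22.9% of all genes were called for P56 against P5 in WT and 29.6% in KO. For KO against WT in P56 air the compared groups by themselves gave 1 member called. For P5 against E19 in WT (3 called) the count was 1 with no offset, 5 with the offset at the median, 1 with centring, 1 with only the compared groups, 1 with the liver covariate, and 1 to 8 with each replicate left out. For P56 against P5 in WT (4 called) it was 0 with the offset at the median, 7 with only the compared groups, 0 with the liver covariate, and 0 to 3 with each replicate left out. For P56 against P5 in KO (3 called) it was 5 with the liver covariate. Leaving out each replicate gave 0 to 1 for hyperoxia in KO at P5, 0 to 1 for P5 against E19 in KO and 0 to 5 for the birth difference. The cause of these changes was not tested. With the replicate block (estimated correlation -0.036), 6 members were called at E19, 3 for P5 against E19 in WT, 4 and 3 for P56 against P5 in WT and KO, and 0 in the other comparisons; Tfrc at E19 lost its call (adjusted p = 0.0592). No detection calls were used, so members near the median of all values have no separate limit of detection here.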
